A study of Mus musculus with 4 samples.

Results

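The Cfap genes encode cilia and flagella associated proteins, a set named for where the proteins sit and not for a shared sequence. They were chosen by symbol alone: every protein-coding gene of the mm10 annotation whose symbol is Cfap followed by a digit, which gave 31 of 21951 genes. The values come from eCLIP, in which RNA crosslinked to IGF2BP3 by ultraviolet light in mouse testis is pulled down with an antibody and sequenced. Testes were from wild type C57BL/6 males of 8 weeks (C57BL/6J in the protocol), 2 testes being triturated before crosslinking, and the labels describe the material as germ cells and somatic cells together. There were 4 libraries: an IGF2BP3 immunoprecipitate (IP) and a size-matched input (SMInput, the same lysate without the antibody step) for each of 2 replicates, which the design text calls biological. That text also names 3 replicates and an IgG arm, which were not analysed here.

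A cilium or flagellum moves because dynein motors slide the doublet microtubules of its axoneme past one another, under the control of radial spokes and a central pair of microtubules. CFAP proteins line the inside of the doublets, build the projections of the central pair, tether the dyneins and spokes, or help dynein arms assemble in the cytoplasm before transport. In the testis these proteins are made for the sperm tail, and loss of several of them in mice or people gives short, bent or immotile flagella.

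Each deposited table lists clusters, short stretches of RNA where IP reads pile up, and compares the reads of the IP with those of the SMInput of the same replicate. A cluster has a log2(fold change) of IP over SMInput after scaling to library totals, and a P value. It was called significant when the log2(fold change) and the -log10(P value) were both at least 2, the thresholds of the study. The library totals recovered from the listed values were 5133438 IP and 8706391 SMInput reads in replicate 1, and 4637612 IP and 16696122 SMInput reads in replicate 2. With 1 read in each library, a cluster has a log2(fold change) of 0.76 in replicate 1 and 1.85 in replicate 2, so the same fold threshold asks for 2.36 IP reads per SMInput read in replicate 1 and 1.11 in replicate 2. The deeper input of replicate 2 therefore lets clusters with fewer IP reads pass. Read counts behind named clusters were recovered from the listed values, and the intervals given with log2(fold change) are exact 95% intervals of those reads, which cover counting error only. A site called in both replicates is given the values of its highest-fold significant cluster in each.

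Clusters were listed for the markers of every cell type that was looked up: 6 of 6 germ cell genes, 3 of 3 Sertoli cell genes, 4 of 4 Leydig cell genes and 2 of 2 peritubular genes, in both replicates. The germ cell list had 152 clusters in replicate 1 and 140 in replicate 2, the Sertoli list 90 and 76, the Leydig list 35 and 29, and the peritubular list 50 and 26. Prm1, a protamine gene of late spermatids, had the most recovered SMInput reads in one cluster, 358 in replicate 1 and 639 in replicate 2. Insl3, a Leydig cell hormone gene, followed with 319 and 521. Listing alone says little, since 14580 of 21951 protein-coding genes had a listed cluster. Cluster numbers also hung on single genes: Wt1 gave 82 of the 90 and 65 of the 76 Sertoli clusters, and Amh 1 and 3. The reads of Prm1 and Insl3 fit the testis label, with RNA of germ cells and of somatic (Leydig) cells in the libraries. No marker of another tissue was looked up. In such bulk material, fewer cells of a type and less RNA per cell cannot be told apart.

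IGF2BP3 clusters in Cfap genes passed the thresholds a little less often than those of protein-coding genes at large, while a larger share of the genes was called in both replicates. In replicate 1, 58 of 1640 Cfap clusters were significant (3.54%), against 4.91% of clusters in all protein-coding genes. In replicate 2, 104 of 1092 were significant (9.52%), against 13.1%. The Cfap share was thus under the background in both replicates. Clusters that touch each other share reads, and after joining them the 58 and 104 clusters formed 45 and 88 separate sites. A significant cluster was present in 16 Cfap genes in replicate 1, in 20 in replicate 2 and in 14 in both. Of the 14580 protein-coding genes with a listed cluster, 5738 were called in replicate 1 and 8068 in replicate 2. Counted by gene, the set was above the background at the thresholds of the study. The 14 genes called in both are 46.7% of the 30 members with any listed cluster, beside 33.0% of protein-coding genes with a listed cluster. In 8 members (26.7%) significant clusters of the replicates overlapped on the same strand, beside 14.0% of protein-coding genes. The 14 fell to 9 with at least 10 IP reads, 8 with exon clusters alone and 6 with both thresholds at 3. In the same settings the 8 fell to 7, 7 and 4. Background shares by gene are given without these changes only. The members are longer than most genes, with a median span of 41.6 kb against 17.4 kb, and a longer gene can hold more clusters. The part of gene length in these shares was not tested.

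**Figure D1:**
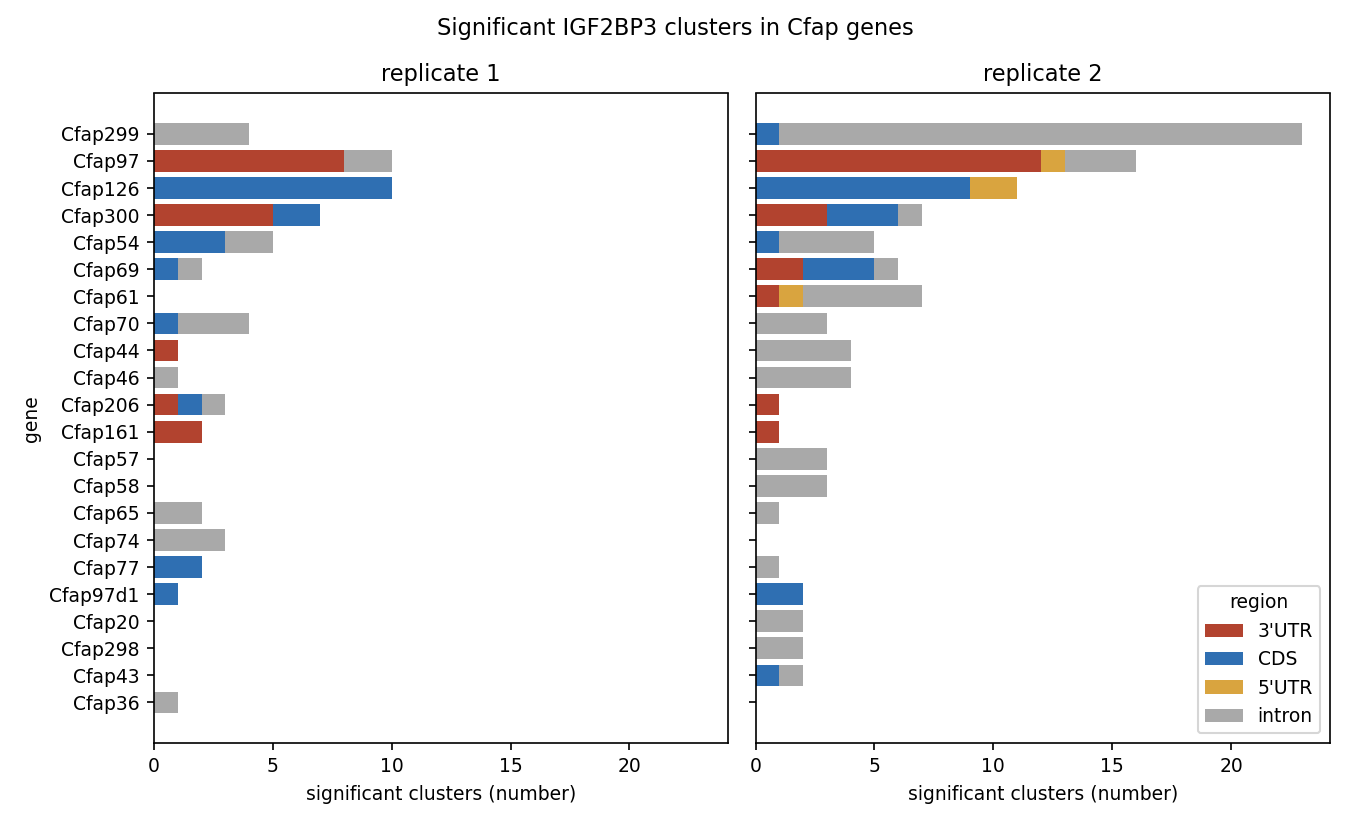
Significant IGF2BP3 clusters (number, x axis) in each Cfap gene with at least 1 (y axis) in replicate 1 (left) and replicate 2 (right), coloured by transcript region. Cfap97, Cfap126 and Cfap300 carry mostly exon clusters in both replicates, while the 22 intron clusters of Cfap299 stand out in replicate 2.

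The 8 genes with overlapping clusters were Cfap126, Cfap161, Cfap300, Cfap97, Cfap97d1, Cfap69, Cfap299 and Cfap206. In a further 6, Cfap44, Cfap46, Cfap54, Cfap65, Cfap70 and Cfap77, both replicates had significant clusters but at different places. Of 14580 protein-coding genes with a listed cluster, 4814 were called in both replicates and 2048 of these at overlapping places. Calls at different places were thus common in the background as well. Cfap36 and Cfap74 were called in replicate 1 alone. Cfap20, Cfap298, Cfap43, Cfap57, Cfap58 and Cfap61 were called in replicate 2 alone. The remaining 9 had no significant cluster in either replicate: Cfap100, Cfap157, Cfap221, Cfap45, Cfap52, Cfap53, Cfap73, Cfap97d2 and Cfap99, of which Cfap99 had no cluster listed at all. In the 8 uncalled genes with clusters, the highest -log10(P value) of any cluster was 1.91 in replicate 1 and 2.49 in replicate 2.

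Coding exons, 3'UTRs and introns contributed about equally in replicate 1, while introns held most calls of replicate 2 as long as Cfap299 was counted. Of the 58 significant clusters of replicate 1, 17 lay in 3'UTRs, 21 in coding sequence (CDS) and 20 in introns. Of the 104 of replicate 2, 20 lay in 3'UTRs, 20 in CDS, 4 in 5'UTRs and 60 in introns. Introns thus held 34.5% and 57.7% of the calls, beside 23.2% and 38.9% in all protein-coding genes. Without Cfap299, left out after its values were seen, they held 29.6% and 46.9%. The 3'UTR share was 29.3% in replicate 1 (Wilson 95% interval 19.2 to 42.0) and 19.2% in replicate 2 (12.8 to 27.8), below the 44.7% and 37.9% of all protein-coding genes. The values depended on the setting, and in the 3 settings that moved them the Cfap share stayed below the background of the same setting. With all transcript models it was 46.6% and 29.8%, beside 48.5% and 41.1%. Among exon clusters it was 44.7% and 45.5%, beside 58.3% and 62.0%, and in replicate 2 among clusters with at least 10 recovered IP reads 41.9%, beside 61.0%. Cfap 3'UTRs are short, with a median of 225 bases against 729, and few clusters were listed there at all.

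Per listed cluster, 3'UTRs came first. In 3'UTRs, 17 of 61 Cfap clusters were called in replicate 1 (27.9%, beside 19.4% in all protein-coding genes) and 20 of 47 in replicate 2 (42.6%, beside 34.5%). In CDS, 21 of 498 were called in replicate 1 (4.22%, beside 5.28%) and 20 of 452 in replicate 2 (4.42%, beside 7.96%). In introns, 20 of 1062 were called in replicate 1 (1.88%, beside 1.94%) and 60 of 573 in replicate 2 (10.5%, beside 10.7%). A listed 3'UTR cluster of a Cfap gene thus passed more often than a CDS or intron cluster in both replicates, and the intron shares were close to the background. Cfap97 and Cfap300 held most of the called 3'UTR clusters, Cfap97 with 8 in replicate 1 and 12 in replicate 2, Cfap300 with 5 and 3. In the central apparatus, doublet inner and spoke groups described below, the 3'UTR share called was under the background in both replicates. It was 0%, 16.7% and 14.3% in replicate 1 and 33.3%, 9.09% and 28.6% in replicate 2. Leaving out Cfap299, chosen after its values were seen, the 3'UTR share of significant clusters was 31.5% and 24.7%.

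Exon clusters rested on more reads than intron clusters. The median significant exon cluster had 23.5 IP reads in replicate 1 and 23.0 in replicate 2, while the median intron cluster had 10 and 5. Of the significant exon clusters, 35 of 38 and 38 of 44 had at least 10 IP reads. Among intron clusters, 10 of 20 and 5 of 60 did. Intron calls of replicate 2 were thus mostly built on a handful of reads. Over all regions, 22.4% of the Cfap calls of replicate 1 and 58.7% of replicate 2 had under 10 IP reads. In all protein-coding genes the shares were 29.0% and 61.9%, so thin calls were not particular to the set. The thinnest calls were 7 IP reads against 1 SMInput read in replicate 1, seen in 6 clusters, and 4 against 1 in replicate 2, seen in 20 clusters. The genes Cfap126, Cfap97, Cfap300 and Cfap161 together held 29 of the 58 significant clusters of replicate 1 and 35 of the 104 of replicate 2.

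Proteins that bind inside the doublet microtubules were the role group with the most reads per call, a median of 64 IP reads in replicate 1 and 45 in replicate 2. Of the 7 genes, 3 were called in both replicates, Cfap126, Cfap161 and Cfap77, and 2 of these at overlapping places. This is 42.9% called in both, beside 33.0% of protein-coding genes, and 28.6% with overlapping calls, beside 14.0%. The group had 14 significant clusters in replicate 1 (9.86% of those listed, beside 4.91%) and 15 in replicate 2 (13.9%, beside 13.1%), of which 12 and 9 were in CDS. Most of them belonged to a single gene, Cfap126.

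Cfap126 (also called Flattop), an inner protein of the doublet microtubules, spans chr1:171113918-171126967 on the plus strand. It had 10 significant clusters among 14 listed in replicate 1 and 11 among 14 in replicate 2. The 10 and 9 of these in CDS lay in exons 2 to 5 of a 5-exon mRNA with a coding sequence of 702 bases and a 3'UTR of 44 bases. In the basic models nearly all of its called signal was thus coding, although with all transcript models 7 of the 10 and 6 of the 11 fell in a 3'UTR. The other 2 clusters of replicate 2, with a log2(fold change) of 3.23 and 3.02 from 13 and 9 IP reads, lay in 5'UTR exons of another transcript model. The longest continuous stretch was exon 4, chr1:171126034-171126210, where 7 touching clusters of replicate 1 and 5 of replicate 2 tiled the whole exon of 177 bases. Highest of all there was a log2(fold change) of 4.59 (3.41 to 6.07) from 85 IP and 6 SMInput reads in replicate 1. The same exon reached 3.96 (3.22 to 4.76) from 82 IP and 19 SMInput reads in replicate 2. The -log10(P value) of these clusters was 27.5 and 46.1. The counting intervals of the replicates overlapped, and the difference between them was not tested.

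The signal ran on without a break across the splice junction of Cfap126. The first 22 bases of exon 5, chr1:171126564-171126585, had a log2(fold change) of 4.43 (3.24 to 5.92) from 76 IP and 6 SMInput reads in replicate 1. In replicate 2 it was 4.43 (3.54 to 5.45) from 72 IP and 12 SMInput reads. In the spliced mRNA this stretch follows exon 4 with 0 bases between, and exon 3 with exon 4 likewise with 0. Folds were lower in exons 2 and 3. Exon 3, chr1:171125280-171125352, gave 2.22 (1.0 to 3.60) in replicate 1 and 2.26 (0.89 to 3.69) in replicate 2, there from the last 30 bases alone. Another cluster of replicate 2 at the start of exon 3, chr1:171125273-171125294, was not called, with 1.17 from 5 IP and 8 SMInput reads. Exon 2, chr1:171125028-171125088, gave 2.44 (0.93 to 4.24) and 2.49 (1.17 to 3.87). A cluster across the stop codon, chr1:171126727-171126817, passed in replicate 2 with 3.09 from 45 IP and 19 SMInput reads and missed the fold threshold in replicate 1 with 1.99 from 54 IP and 23 SMInput reads. Both replicates thus had calls in exons 2, 3 and 4 and at the start of exon 5, highest around the junction of exons 4 and 5, and in exon 3 replicate 2 was called in part.

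**Figure D2:**
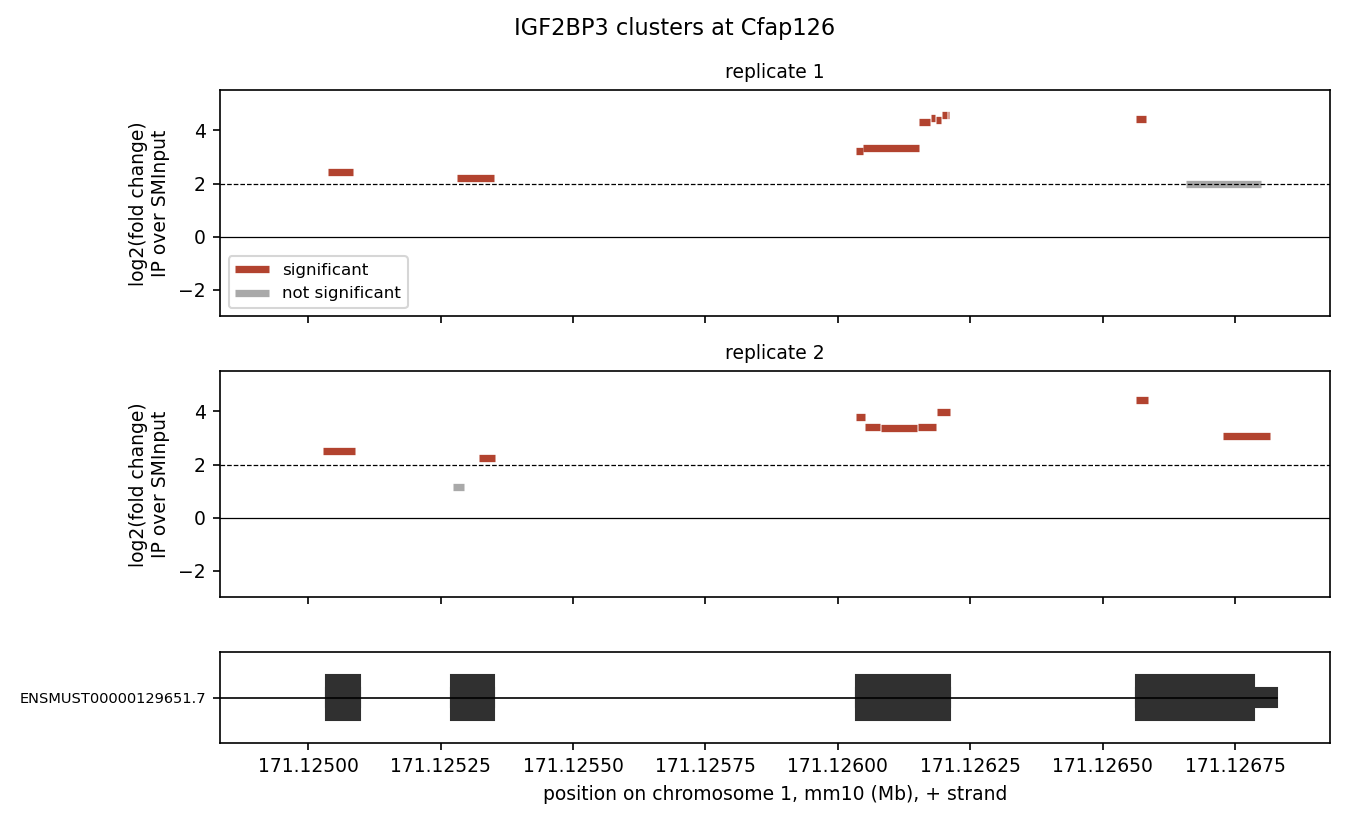
IGF2BP3 clusters over exons 2 to 5 of Cfap126: log2(fold change) of IP over SMInput (y axis) against position on chromosome 1 in Mb (x axis, mm10, plus strand), one panel per replicate, with the transcript model below (tall boxes coding, low boxes untranslated). The highest clusters of both replicates sit in exon 4 and at the start of exon 5, with log2(fold change) up to 4.59 and 4.43, and the dashed line marks the threshold of 2.

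The sequences under the strongest Cfap126 signal are shown because exon 4 and the start of exon 5 carried the highest folds of the gene in both replicates. They are read from mm10, plus strand, 5' to 3', at chr1:171126034-171126210 (exon 4) and chr1:171126564-171126585 (start of exon 5). Capitals mark the bases common to the highest-fold overlapping clusters of both replicates. In exon 4, touching clusters of replicate 1 tied at 4.59 and only the first was used, so the last bases of the exon stay in lower case.
Cfap126 exon 4: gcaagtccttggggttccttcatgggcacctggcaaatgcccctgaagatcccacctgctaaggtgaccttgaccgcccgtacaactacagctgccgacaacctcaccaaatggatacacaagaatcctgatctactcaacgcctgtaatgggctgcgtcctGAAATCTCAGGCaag
Cfap126 exon 5 start: CCCTTCGATCCTGACAGTCaga

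Cfap161, another doublet inner protein, had its whole signal in the 3'UTR. The site was chr7:83775825-83775896 on the minus strand, from 74 to 145 bases after the stop codon in a 3'UTR of 353 bases. Its log2(fold change) was 4.13 (2.93 to 5.63) from 62 IP and 6 SMInput reads in replicate 1 and 3.98 (3.09 to 4.97) from 57 IP and 13 SMInput reads in replicate 2. Both intervals lay above the threshold of 2. None of the 7 CDS clusters of replicate 1 or the 6 of replicate 2 was called. The stretch below is at chr7:83775874-83775903 (mm10, minus strand, 3'UTR), shown because this was the highest shared 3'UTR site of the gene set, and capitals again mark the bases that the highest clusters of both replicates have in common.
Cfap161 3'UTR: tgaacagtCTTTCTTGGCTGTGccccaagc

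The other doublet inner proteins had thin calls or none. Cfap77 had 2 significant CDS clusters in replicate 1, with 10 and 7 IP reads, and 1 intron cluster in replicate 2 with 6 IP reads, none overlapping a listed cluster of the other replicate. Cfap20, a protein of the inner junction of the doublet, had 2 intron clusters in replicate 2, each with a log2(fold change) of 2.17 from 10 IP and 8 SMInput reads. Cfap45, Cfap52 and Cfap53 had none, although their mRNAs were covered. Cfap45 had 13 CDS clusters in replicate 1 and 20 in replicate 2, and the median log2(fold change) over all its clusters was -0.16 and -0.09. Relative to library totals, its RNA was thus about as frequent in the IP as in the input.

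Of the 2 genes for dynein arm assembly factors, Cfap300 was called in both replicates and Cfap298 in replicate 2 alone. Thus 1 of 2 was called in both, beside 33.0% of protein-coding genes, and 1 of 2 had overlapping calls, beside 14.0%. The group had 7 significant clusters in replicate 1 (21.2% of those listed, beside 4.91%) and 9 in replicate 2 (32.1%, beside 13.1%). All 7 and 7 of the 9 belonged to Cfap300, so these shares rest mostly on 1 gene. Cfap300 had 7 significant clusters among 21 listed in replicate 1 and 7 among 15 in replicate 2, in both CDS and 3'UTR. At its stop codon, chr9:8022296-8022448 on the minus strand, the log2(fold change) was 3.76 (1.67 to 6.93) from 16 IP and 2 SMInput reads in replicate 1. In replicate 2 it was 3.72 (1.80 to 6.20) from 11 IP and 3 SMInput reads. The site runs from 32 bases before the end of the stop codon to 120 bases after it. Exons 3 and 4, which are joined in the mRNA, formed one further continuous stretch.

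Exon 3 of Cfap300, at chr9:8037456-8037526, had a log2(fold change) of 2.50 (0.54 to 5.0) from 10 IP and 3 SMInput reads in replicate 1. In replicate 2 it had 4.85 (2.76 to 8.01) from 16 IP and 2 SMInput reads. Exon 4, at chr9:8027101-8027271, covered in full in replicate 1 and over its first 55 bases in replicate 2, had 2.25 (0.69 to 4.07) from 14 IP and 5 SMInput reads in replicate 1 and 5.02 (2.17 to 10.47) from 9 IP and 1 SMInput read in replicate 2. A second cluster of replicate 2 in exon 4, chr9:8027101-8027143, was not called, with 1.85 from 5 IP and 5 SMInput reads. The called clusters of replicate 2 thus had higher folds in both exons, with intervals that overlapped those of replicate 1, while the end of exon 4 was called in replicate 1 alone. A last site near the mRNA end, chr9:8021750-8021848, had 3.93 (1.08 to 9.39) and 2.66 (1.57 to 3.81), and 72.7% of its bases are marked as repeats in the genome. Exon 5 passed in replicate 2 alone, with 2.55 from 13 IP and 8 SMInput reads, where replicate 1 had 1.29. Cfap298 had 2 intron clusters in replicate 2, each with 4 IP reads and 1 SMInput read, and none of its 10 CDS clusters there was called.

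The Cfap300 stretches are shown because they place the signal on both sides of a splice junction and at the stop codon. They are read from mm10, minus strand, at chr9:8037460-8037526 (exon 3), chr9:8027101-8027267 (exon 4) and chr9:8022411-8022440 (around the stop codon), with capitals for bases common to the highest clusters of both replicates.
Cfap300 exon 3: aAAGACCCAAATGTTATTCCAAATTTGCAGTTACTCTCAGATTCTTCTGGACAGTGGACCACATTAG
Cfap300 exon 4: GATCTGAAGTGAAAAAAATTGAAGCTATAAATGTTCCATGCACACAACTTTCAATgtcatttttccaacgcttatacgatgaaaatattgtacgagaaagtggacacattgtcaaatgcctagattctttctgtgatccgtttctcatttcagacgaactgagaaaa
Cfap300 stop codon: ctatggtGTAGGGCACATGGCTTaggattg

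Genes for central apparatus proteins were often called in both replicates at the thresholds of the study, and about as many as in the background were called at one place. Of the 7, Cfap46, Cfap54, Cfap65, Cfap69 and Cfap70 were called in both, Cfap74 in replicate 1 and Cfap221 in neither. The 5 are 71.4% of the group, beside 33.0% of protein-coding genes. Only Cfap69 had overlapping calls (14.3%, beside 14.0%). With at least 10 IP reads, only Cfap69 and Cfap70 of the group were called in both. With exon clusters alone, only Cfap54 and Cfap69 were. The genes of the group are long, with a median span of 73.9 kb against 17.4 kb. Counted by cluster the group was below the background, with 17 significant clusters in replicate 1 (2.80%, beside 4.91%) and 19 in replicate 2 (4.76%, beside 13.1%). Of these, 12 and 13 were in introns. The median IP reads of a significant cluster were 11 and 6, low beside those of the doublet inner group.

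Cfap69, a central apparatus protein needed for sperm motility in mice, had its shared site in exon 15 of 23, chr5:5595930-5596040 on the minus strand. The log2(fold change) there was 3.18 (1.37 to 5.6) from 16 IP and 3 SMInput reads in replicate 1 and 2.22 (1.40 to 3.05) from 31 IP and 24 SMInput reads in replicate 2. The site holds 110 of the 119 bases of the exon, of which the called cluster of replicate 1 covers 38. A second cluster of replicate 1 at the other end of the exon, chr5:5595928-5595957, was not called, with 1.25 from 7 IP and 5 SMInput reads. In replicate 2 the neighbouring exon 14 also passed, with 2.36 (1.3 to 3.46) from 20 IP and 14 SMInput reads. With an overlap of at least 50% of each cluster required, the site was no longer shared. The other calls of the gene were not shared. In replicate 2 they were exon 5 with 2.17 (0.68 to 3.71) from 10 IP and 8 SMInput reads, 3'UTR clusters with 2.53 from 8 IP and 5 SMInput reads and 3.85 from 4 IP reads and 1 SMInput read, and an intron cluster with 3.17 from 5 IP and 2 SMInput reads. In replicate 1 there was an intron cluster with 2.35 from 15 IP and 5 SMInput reads. The exon 15 sequence at chr5:5595930-5596039 (mm10, minus strand) is shown as the one shared site of the central apparatus group, with capitals for the bases common to the clusters of both replicates.
Cfap69 exon 15: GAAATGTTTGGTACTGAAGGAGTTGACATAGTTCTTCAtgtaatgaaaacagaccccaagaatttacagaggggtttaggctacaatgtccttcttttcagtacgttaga

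Cfap54, a large central apparatus protein, had 5 significant clusters in each replicate, all with few reads. In replicate 1, 3 lay in CDS and 2 in introns. The CDS clusters were in exon 38 (3.08, 0.85 to 6.31, from 10 IP and 2 SMInput reads) and, touching each other, in exon 34 (2.93 and 3.22, from 9 and 11 IP reads). In replicate 2, 1 lay in CDS, in exon 28 with 2.26 (0.55 to 4.07) from 8 IP and 6 SMInput reads, and 4 in introns with 5 to 8 IP reads. For 9 of these 10 clusters the other replicate listed no cluster at the same place. The exception was the intron cluster chr10:93041513-93041578, with 2.53 in replicate 2 and 1.76 from 6 IP and 3 SMInput reads in replicate 1. Replicates thus differed in where this gene was called.

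Cfap65, a central apparatus protein whose loss gives malformed sperm tails, had many listed clusters in its exons and no call there. It had 47 CDS clusters in replicate 1 and 38 in replicate 2, and 0 of them were called. The median log2(fold change) over all its clusters was -0.06 and -0.30. Its calls were neighbouring intron clusters at chr1:74929785-74929876 in replicate 1 (minus strand, 2.35 from 12 IP and 4 SMInput reads, and 2.25 from 14 IP and 5). In replicate 2 the call was an intron cluster at chr1:74931586-74931613 (2.85, 0.95 to 5.03, from 8 IP and 4 SMInput reads). With a minimum log2(fold change) of 1 in place of 2, significant clusters of the replicates did overlap in this gene, but in an intron. They had 1.72 from 31 IP reads in replicate 1 and 1.53 from 32 IP reads in replicate 2.

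In Cfap46, Cfap70 and Cfap74, also of the central apparatus, nearly all calls were in introns. The exception was a CDS cluster of Cfap70 in exon 16 with a log2(fold change) of 3.46 (1.32 to 6.65) from 13 IP and 2 SMInput reads in replicate 1. The overlapping cluster of replicate 2 had -0.22, so that site was not shared. Cfap46 had 25 CDS clusters in replicate 1 and 32 in replicate 2 with none called. Cfap74 had 3 intron clusters in replicate 1, from 2.04 to 2.26, and no call among 47 clusters in replicate 2. Cfap221 had 36 and 18 listed clusters and no call.

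Genes for the spoke base, the tether and the inner dynein adaptors had few calls in replicate 1 and mostly intron calls in replicate 2. Among the 7 genes there were 4 significant clusters of 441 in replicate 1 (0.907%) and 17 of 285 in replicate 2 (5.96%), below the 4.91% and 13.1% of protein-coding genes. Of the 17, 13 were in introns. Cfap206 and Cfap44 were called in both replicates (28.6%, beside 33.0%), and Cfap206 alone at one place (14.3%, beside 14.0%), so by gene the group was close to the background.

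Cfap206, a protein at the base of a radial spoke, had its shared site in the 3'UTR, chr4:34688600-34688758 on the minus strand, from 26 to 184 bases after the stop codon. The log2(fold change) was 2.25 (1.16 to 3.45) from 28 IP and 10 SMInput reads in replicate 1 and 2.04 (1.41 to 2.67) from 48 IP and 42 SMInput reads in replicate 2. This was the shared site closest to the threshold in replicate 2, although it had many reads. A CDS cluster in exon 7 passed in replicate 1 with 2.08 (0.84 to 3.48) from 20 IP and 8 SMInput reads, where replicate 2 had 1.3. An intron cluster of replicate 1 had 3.57 (0.61 to 9.06) from 7 IP reads and 1 SMInput read, with no cluster listed there in replicate 2. A part of the stretch, chr4:34688645-34688674 (mm10, minus strand), is printed to show a shared 3'UTR site of low fold, and all its bases lie in the clusters of both replicates and so are in capitals.
Cfap206 3'UTR: CTGTGCACTAGGGCACCGTATCCTGCCTGA

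Cfap44, which with Cfap43 tethers an inner dynein to the doublet, had a 3'UTR cluster at chr16:44482322-44482391 (plus strand) with 4.35 (1.59 to 9.76) from 12 IP reads and 1 SMInput read in replicate 1. The overlapping cluster of replicate 2 had 1.85 from 4 IP and 4 SMInput reads and was not called. Its 4 calls of replicate 2 were intron clusters of 4 or 5 IP reads. Cfap61, a spoke associated protein, had 7 calls in replicate 2 alone, 5 of them in introns. Its exon calls were a 3'UTR cluster with 2.85 (1.44 to 4.40) from 14 IP and 7 SMInput reads, where replicate 1 had 1.35, and a 5'UTR cluster with 3.31 from 11 IP and 4 SMInput reads. Cfap57, involved in inner dynein assembly, had 3 intron calls in replicate 2, the highest 4.17 (2.35 to 6.60) from 15 IP and 3 SMInput reads. Cfap43 had a CDS and an intron call there, with 8 and 7 IP reads. Cfap73 and Cfap100, which act together in docking inner dyneins, had none.

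Among the 8 members outside these groups, Cfap97, Cfap97d1 and Cfap299 had overlapping calls, 42.9% of the 7 with a listed cluster, beside 14.0% of protein-coding genes. Cfap97 was called mostly along a long 3'UTR, Cfap97d1 in coding exons, and Cfap299 almost entirely in introns. The group had 16 significant clusters in replicate 1 (3.85%, beside 4.91%) and 44 in replicate 2 (16.2%, beside 13.1%).

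Cfap97, the mouse relative of a fly gene needed for motile cilia, had 10 significant clusters in replicate 1 and 16 in replicate 2, of which 8 and 12 were in the 3'UTR. Most of them lie in a last exon of 3006 bases, chr8:46192585-46195590 on the plus strand, which holds a 3'UTR of 2878 bases. Another transcript model splices out most of this stretch. The 2 highest of the 5 shared sites were well apart. At chr8:46193928-46194113 the log2(fold change) was 3.38 (2.22 to 4.78) from 43 IP and 7 SMInput reads in replicate 1 and 3.05 (2.19 to 3.96) from 39 IP and 17 SMInput reads in replicate 2. At chr8:46195342-46195444, near the mRNA end and in an exon of both models, it was 3.45 (2.29 to 4.84) from 45 IP and 7 SMInput reads and 3.03 (2.34 to 3.76) from 59 IP and 26 SMInput reads. For these highest clusters the intervals lay above the threshold of 2 in both replicates, while further called clusters of the same sites had lower folds, 2.14 (1.04 to 3.36) and 2.29 (1.07 to 3.66) in replicate 1 and 2.39 (1.91 to 2.87) in replicate 2. At the first site the calls of replicate 1 ended at chr8:46193996, and its clusters over the rest had 1.53 from 46 IP and 27 SMInput reads and 1.44 from 61 IP and 38 SMInput reads.

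The other 3 shared sites of Cfap97 had log2(fold change) between 2.16 and 2.69. One of them, chr8:46192699-46192788, crosses the stop codon of the model with the long 3'UTR, with 2.35 (1.48 to 3.30) from 45 IP and 15 SMInput reads in replicate 1 and 2.32 (1.51 to 3.16) from 32 IP and 23 SMInput reads in replicate 2. Of these 3, the site chr8:46194302-46194458 had the most IP reads, 73 in replicate 1 at 2.31 (1.64 to 3.03) and 86 in replicate 2 at 2.69 (2.16 to 3.23). The last, chr8:46193703-46193859, had 2.16 (1.12 to 3.31) and 2.68 (2.08 to 3.30). Signal was thus spread along the long 3'UTR and not gathered at one place.

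**Figure D3:**
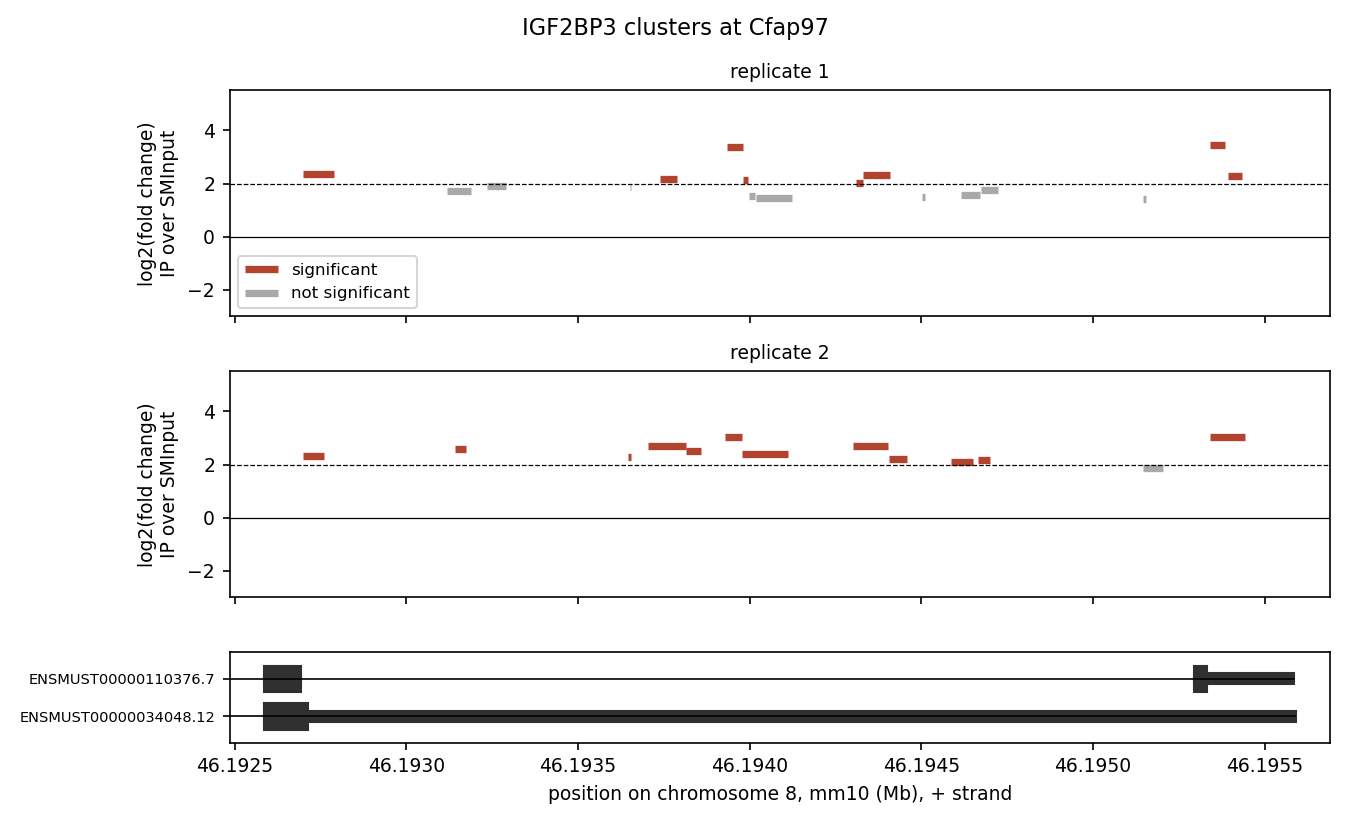
IGF2BP3 clusters over the last exons of Cfap97: log2(fold change) of IP over SMInput (y axis) against position on chromosome 8 in Mb (x axis, mm10, plus strand), one panel per replicate, with 2 transcript models below (tall boxes coding, low boxes untranslated). Significant clusters of both replicates recur from the stop codon to the end of the long 3'UTR, the highest with log2(fold change) of 3.45 in replicate 1 and 3.05 in replicate 2.

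Parts of the 2 highest Cfap97 sites are shown as the highest shared folds in its long 3'UTR. They are at chr8:46193941-46193970 and chr8:46195349-46195378 (mm10, plus strand), and every base is in capitals because it lies in the highest clusters of both replicates.
Cfap97 3'UTR site 1: GTCAGCATGTCTTTAGTAGATATATGTAAG
Cfap97 3'UTR site 2: TTGCCCTGGTTAGCAACGCAAAACCTGTGT

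Cfap97d1, needed to maintain the sperm axoneme, had a shared site that covered the whole of its coding exon 2, 71 bases inside chr11:101987941-101988018 on the plus strand. The log2(fold change) was 2.53 (1.03 to 4.32) from 17 IP and 5 SMInput reads in replicate 1 and 2.61 (1.40 to 3.90) from 17 IP and 10 SMInput reads in replicate 2. Exon 1 passed in replicate 2 alone with 2.64 from 19 IP and 11 SMInput reads. The exon is printed because it holds 4 matches to the motifs described further on, 3 of them overlapping copies of ACACA. Of the bases of the site, 42.3% are marked as repeats. It is at chr11:101987947-101988017 (mm10, plus strand), all in capitals since the clusters of both replicates contain it.
Cfap97d1 exon 2: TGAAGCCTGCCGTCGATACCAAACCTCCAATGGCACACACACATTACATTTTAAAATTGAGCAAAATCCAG

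Cfap299, a little studied member with a span of 473 kb, had the most significant clusters over both replicates together, 4 in replicate 1, where several genes had more, and 23 in replicate 2. All 4 and 22 of the 23 were in introns, where the clusters of replicate 2 had 4 to 14 IP reads. The shared intron site, chr5:98652619-98652719 on the plus strand, had 2.76 (0.87 to 5.23) from 12 IP and 3 SMInput reads in replicate 1 and 2.21 (0.62 to 3.87) from 9 IP and 7 SMInput reads in replicate 2. With a minimum of 10 IP reads the site was no longer shared. Of its bases, 76.2% are marked as repeats. The exon call, at chr5:98801862-98801912 shortly before the stop codon, had 3.55 (2.36 to 4.90) from 26 IP and 8 SMInput reads in replicate 2. Replicate 1 listed no cluster there. The intron site is printed because it was the only shared site outside exons, at chr5:98652619-98652719 (mm10, plus strand), with capitals for the bases common to both clusters.
Cfap299 intron: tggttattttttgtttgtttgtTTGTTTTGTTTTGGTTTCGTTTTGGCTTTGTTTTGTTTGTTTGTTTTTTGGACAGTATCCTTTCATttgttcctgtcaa

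The remaining genes of this group had thin calls or none. Cfap36, which binds the small GTPase ARL3, had 1 intron cluster in replicate 1 with 7 IP reads. Cfap58, needed for the sperm flagellum, had 3 intron clusters in replicate 2 with 4 to 6 IP reads. Cfap157, which acts at the base of the sperm tail, had 4 and 3 listed clusters and none called. Cfap97d2 had 2 and 1.

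Over all members there were 18 shared sites, 9 in 3'UTRs, 8 in CDS and 1 in an intron, from 22 to 186 bases long. At each of the 18 the counting intervals of the replicates overlapped, which is not a test of their difference. The log2(fold change) was higher in replicate 1 at 10 sites and equal to 2 decimals at 1, so neither replicate was uniformly higher. At 5 sites, in Cfap126, Cfap161 and Cfap97, both intervals of the highest clusters lay wholly above 2. Shared sites were thus mostly in mRNA exons, whereas intron calls made up 20 of the 58 and 60 of the 104 clusters.

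Each significant cluster was also looked up in the other replicate, where a place may have no listed cluster. Of the 58 clusters of replicate 1, 35 (60.3%, beside 53.3% for all protein-coding genes) overlapped a listed cluster of replicate 2, and 30 (51.7%) overlapped a significant one, beside 32.9%. Of the 104 clusters of replicate 2, 43 (41.3%, beside 41.6%) overlapped a listed cluster of replicate 1, and 25 (24.0%) a significant one, beside 18.4%. Where a cluster was listed in the other replicate, its log2(fold change) was above 0 in 34 of the 35 (97.1%, beside 99.3%) and in 43 of the 43 (100%, beside 98.1%). The shares above 0, of places already called in one replicate, were close to the background. The shares that overlapped a significant cluster were above it, but most of these clusters belonged to Cfap126, Cfap97, Cfap300 and Cfap161. Those genes held 29 of the 58 and 35 of the 104 significant clusters, many of them touching. Cfap97d1, Cfap69, Cfap299 and Cfap206 had 1 such cluster each per replicate, so the higher shares rest on few genes. Across the 524 overlapping pairs of Cfap clusters, significant or not, Pearson's r of log2(fold change) was 0.70, and across 91053 pairs in protein-coding genes it was 0.64. It was 0.72 over 48 pairs in Cfap 3'UTRs, 0.71 over 365 in CDS and 0.42 over 91 in introns. These are descriptions across clusters, which share libraries and, where they touch, reads.

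Short sequence motifs were counted on the strand of each significant cluster, in the centre and 50 bases on each side. GAACA and AAACC are named by the study, GGACT is a sequence in which m6A is often placed, and ACACA is a CA-rich element. In replicate 1, GAACA was in 11 of 58 Cfap windows (19.0%, beside 8.98% in all protein-coding genes), and in replicate 2 in 7 of 104 (6.73%, beside 8.43%). AAACC was in 9 windows of replicate 1 (15.5%, beside 8.69%) and 9 of replicate 2 (8.65%, beside 8.16%). GAACA thus fell above the background in replicate 1 and below it in replicate 2, and AAACC was close to it in replicate 2. GGACT went the other way, with 2 windows in replicate 1 (3.45%, beside 10%) and 15 in replicate 2 (14.4%, beside 9.13%). ACACA was above the background in both, with 15 windows in replicate 1 (25.9%, beside 11.2%) and 17 in replicate 2 (16.3%, beside 10.8%). Its 15 and 17 windows came from 9 and 10 genes, with at most 3 from Cfap126 in each replicate. Windows of touching clusters overlap, so 1 copy of a motif can be counted more than once, and a match is a description and not a binding site.

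Repeats were frequent under the intron calls. At least 50% of the bases were marked as repeats in 10 of 58 significant clusters of replicate 1 (17.2%, beside 10.7% in protein-coding genes) and 24 of 104 of replicate 2 (23.1%, beside 16.9%). In introns this was 8 of 20 (40%, beside 25.6%) and 22 of 60 (36.7%, beside 30.5%). In Cfap 3'UTRs and CDS it was 1 cluster each per replicate. The part of repeats in the intron calls was not tested.

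Other genes of the motile axoneme were called less often at one place. The list held 32 partners, such as radial spoke, nexin-dynein and central pair genes, and included Maats1, Wdr66 and Ccdc173, which encode Cfap proteins under older symbols. Clusters were listed for 31 of them. A significant cluster was present in 16 partners in replicate 1, 19 in replicate 2 and 10 in both (32.3% of 31, beside 33.0% of protein-coding genes). In 3 partners (9.68%, beside 14.0%) significant clusters overlapped, among them Tcte1, a subunit of the nexin-dynein regulatory complex. Overlap was thus less frequent than among the Cfap genes, a difference that was not tested. The partners had 50 significant clusters of 2098 in replicate 1 (2.38%) and 97 of 1418 in replicate 2 (6.84%), with 29 and 75 in introns. Tcte1 stood apart with 8 significant clusters in each replicate, 3 in the 3'UTR in each. Spag16, a central pair gene, had by contrast 29 calls in replicate 2, all in introns. Most partner calls, like those of Cfap299, were in introns.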

How the data were processed

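Members, role groups, partner genes and motifs were chosen with earlier results of these data known. IGF2BP3 IP and SMInput libraries of mouse testis (2 per group) were compared within each replicate. Per the deposited tables, the authors gave each cluster a -log10(P value) (neg_log10_p, chi-square or Fisher's exact test, 0 where the IP was not enriched, at most 400). The authors also gave a log2 fold change, the IP share of library reads over the SMInput share. The submitters' processing notes name cutadapt, Bowtie2 and STAR without versions, and mm10.

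A cluster belonged to a gene when its centre lay in the gene's span on the same strand, and its region was taken from basic transcripts, with 3'UTR before CDS, 5'UTR and intron. Joined sites merge touching or overlapping significant clusters. Reads per cluster were recovered as the whole numbers that give both listed values: 98.8% of clusters of replicate 1 and 99.1% of replicate 2, among those with a -log10(P value) between 0 and 400, had a single solution. The recovery was tested on simulated data. Intervals are exact (Clopper-Pearson) for reads and Wilson for shares. No test between samples was made, and the P values are the authors' own, unadjusted for the number of clusters.

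Full values were given for the shared sites of genes with overlapping calls (at most 12 genes, ranked by the lower of the replicates' highest folds). Cfap65 and Cfap54, which the study's text or supplementary lists name, and the 3 genes with the most significant clusters were also described. Some of their calls are given as counts or read ranges alone. Other genes were named after their values were seen. Alternatives tried were stricter and looser thresholds, adjusted P values, a minimum of 10 IP reads, other gene and region assignments, a larger overlap and leaving out a replicate. Python 3.11.15, pandas 2.3.3, numpy 2.4.6, SciPy 1.17.1 and matplotlib 3.10.9 were used.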

Additional observations from a re-analysis of the deposited data

How the results depend on the processing

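With both thresholds raised to 3, significant clusters fell to 19 in replicate 1 and 25 in replicate 2, the genes called in both to 6, and those with overlapping calls to 4 (Cfap126, Cfap161, Cfap300 and Cfap97, all among the 8), since fewer clusters pass. A minimum of 10 IP reads left 43 clusters in replicate 2 and 9 genes called in both, and the 3'UTR share of replicate 2 was 41.9%, since most intron calls there had fewer reads. Counting clusters centred in exons alone, which drops introns by construction, gave 38 and 44 clusters, 8 genes called in both and 3'UTR shares of 44.7% and 45.5%. With all transcripts of the annotation in place of the basic ones, the 3'UTR shares were 46.6% and 29.8%, since further models place Cfap126 coding exons, and fewer clusters of other genes, in 3'UTRs. The other 39 values stayed within 1.5 times the reported count or inside the 95% interval of the reported share. Leaving out a replicate gave 16 to 20 genes with a significant cluster, and the overlap result had no value with 1 replicate. Genes with overlapping calls numbered 6 to 9 under the remaining alternatives. Among these, assignment to the nearest transcription start site gave 6, of which 5 were among the 8 (Cfap97, Cfap206 and Cfap299 were lost). Cfap69 was lost when at least 50% of each cluster had to overlap, and Cfap299 with at least 10 IP reads or with exon clusters alone. The alternative without Cfap299 was chosen after seeing the data.

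No paired analysis was possible because the results are counts that come from no test between libraries, each table already comparing an IP with the SMInput of its own replicate. Clusters were listed separately per replicate, so a place without a listed cluster has no value.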

Other observations

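Clusters on the strand opposite to a Cfap gene, within its span, numbered 27 in replicate 1, of which 1 was significant, and 24 in replicate 2, of which 4 were. Most lay opposite one gene, Cfap43, with 23 in replicate 1 (1 significant) and 20 in replicate 2 (3 significant). Within 5000 bases downstream of the members, no cluster outside other genes was listed in either replicate.

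Assigning clusters to the nearest transcription start site credited some Cfap genes with signal from a neighbouring host gene. Cfap126 received 1 significant cluster in replicate 1 and 3 in replicate 2 from Sdhc, which encodes a subunit of succinate dehydrogenase. In replicate 2, Cfap298 received 3 from Synj1, Cfap100 received 2 from Zxdc, and Cfap53 received 1 from Mbd1.

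The base composition of the windows around significant clusters was 26.4% A and 29.3% T in Cfap genes in replicate 1, beside 23.8% and 29.6% in all protein-coding genes. In replicate 2 it was 24.0% A and 31.3% T, beside 23.3% and 31.1%.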
